A study of Homo sapiens with 6 samples.

Results

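UCHL1 and 6 other genes of ubiquitin recycling were followed in IMR32 cells, a human neuroblastoma line, of which 3 libraries were treated for 24 h with 5 µM CBR-470-1 and 3 received an equal volume of DMSO, the vehicle. The series title places the compound, a small molecule, in work on glycolysis and the KEAP1-NRF2 pathway. PolyA-selected RNA was sequenced, and each treatment had 3 biological replicates of the same line. The 7 genes were taken by symbol from a table of 35473 gene rows: the ubiquitin C-terminal hydrolases UCHL1, UCHL3, UCHL5 and BAP1, the proteasome-bound deubiquitinase USP14, the polyubiquitin gene UBB and the ubiquitin-activating enzyme gene UBA1. All 7 had a row and all 7 passed the minimum for testing, an average of 1 TPM or more across the 6 libraries. TPM, the usual transcript unit, is a length-scaled share of a library's transcripts. The set was chosen by name around UCHL1, which was selected on its difference between CBR-470-1 and DMSO in these same libraries. The treatment differences of the 7 genes are therefore given as a description, without a p-value.

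Ubiquitin is a small protein that cells attach to other proteins, often as chains that mark the target for the proteasome. It is made as fusions or head-to-tail repeats that must be cut into single units, is activated by an E1 enzyme such as UBA1, passed to an E2 enzyme and joined to targets with the help of E3 ligases. Deubiquitinases cut it off again, so that ubiquitin is recovered before the target is destroyed. UCHL1, also known as PGP9.5, is a neuronal and neuroendocrine deubiquitinase that is abundant in brain and binds free ubiquitin.

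UCHL1 starts beside a divergent noncoding gene. In GRCh38 with GENCODE 29 models, UCHL1 (ENSG00000154277.12) lies on the plus strand of chromosome 4 from 41256413 to 41268455. The noncoding antisense gene UCHL1-AS1, named UCHL1-DT in RefSeq, lies on the minus strand of the same chromosome and shares 315 bases with the UCHL1 gene model. In RefSeq on GRCh38.p14 their start sites lie at 41256928 and 41256727, 201 bases apart, and point away from each other. The UCHL1-AS1 row held 0.461, 0.185 and 0.212 TPM under DMSO and 0.269, 0.202 and 0.253 TPM in CBR-470-1, so little signal was assigned to the antisense gene in any library. The other genes of the set lie on chromosome 13 from 75549480 to 75606020 (UCHL3), chromosome 1 from 193012250 to 193060080 (UCHL5), chromosome 3 from 52401013 to 52410350 (BAP1), chromosome 18 from 158383 to 214629 (USP14), chromosome 17 from 16380798 to 16382745 (UBB) and chromosome X from 47190861 to 47215128 (UBA1). The values are given per gene and do not resolve exons. The library kit named in the labels is given without a strand option, and reads from the shared bases cannot be assigned to a strand from this table.

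RefSeq promoter windows, 250 bases before to 50 bases from the start site, were found for 6 of the 7 genes, 11 windows in all. The windows of UCHL1 and USP14 are shown because these were the genes of the set whose libraries did not overlap between treatments. The UCHL1 window is chr4:41256678-41256977 on the plus strand, and the USP14 window is chr18:158307-158606 on the plus strand. Capitals mark TATAAA read on the minus strand in UCHL1, and TGACNNNGC, the core of the element bound by NRF2, read on the minus strand in USP14.
UCHL1: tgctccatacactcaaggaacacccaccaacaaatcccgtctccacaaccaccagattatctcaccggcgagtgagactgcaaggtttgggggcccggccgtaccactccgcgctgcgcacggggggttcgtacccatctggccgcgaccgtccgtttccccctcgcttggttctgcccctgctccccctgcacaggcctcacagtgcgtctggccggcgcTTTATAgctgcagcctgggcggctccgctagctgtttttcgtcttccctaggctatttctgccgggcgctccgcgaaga
USP14: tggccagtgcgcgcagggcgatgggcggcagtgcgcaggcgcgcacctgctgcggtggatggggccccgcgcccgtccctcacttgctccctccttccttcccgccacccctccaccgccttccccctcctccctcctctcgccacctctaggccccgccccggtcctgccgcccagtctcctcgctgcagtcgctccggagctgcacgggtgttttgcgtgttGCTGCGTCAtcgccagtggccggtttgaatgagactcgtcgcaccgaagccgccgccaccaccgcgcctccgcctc

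The NRF2 element core TGACNNNGC was searched on both strands because the study concerns NRF2. No match lay in the UCHL1 window, which says only that these letters are not in those 300 bases. Matches lay in windows of 4 of the 6 genes, UCHL3, UCHL5, USP14 and UBB, and in 5 of their 11 windows, where both UBB windows hold the same site. Of all 35116 RefSeq windows, 13.3% held a match, and of all 27305 genes 16.1% had at least 1. The TATAAA motif was found in 11.5% of all windows. The UCHL1 window had 63.0% G and C and 25 CG pairs, and the USP14 window 72.0% and 33, against a median of 58.7% G and C over all windows. A match in a window is a string of letters and not evidence of binding.

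Rows above 0 numbered 20598 in DMSO replicate 3 and 20382 in CBR-470-1 replicate 1, and between 20020 and 20048 in the other 4 libraries. Column sums ran from 972453 to 973696 TPM, and correlations of log2(TPM + 1) over the 13470 tested genes from 0.989 to 0.991 within a treatment and from 0.986 to 0.989 between treatments. Sequencing depth cannot be read from TPM. The adrenergic neuroblastoma markers were present in every library, with a summed level of 3126 to 3407 TPM under DMSO and 3028 to 3069 TPM in CBR-470-1 over 12 genes. Among 10 blood and epithelial markers, CD3E and HBB were listed at 0 in all 6 libraries and the whole list summed to between 1.12 and 2.33 TPM. The 10 mesenchymal and fibroblast markers summed to 318 to 341 TPM under DMSO and 322 to 331 TPM in CBR-470-1. In that list, and named after their values were seen, TWIST1 went from 151 ± 11.9 to 128 ± 4.10 TPM and VIM from 125 ± 0.963 to 144 ± 5.28 TPM, both without overlap, and neither passed in limma (adjusted p = 0.0852 and 0.0594).

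UCHL1 was the most abundant hydrolase of the set and was higher after CBR-470-1 in every library. UCHL1 stood at 769, 763 and 789 TPM in the DMSO libraries and at 1063, 1075 and 1081 TPM in the CBR-470-1 libraries. The 2 groups did not overlap, and the libraries within each lay close together. The mean went from 774 ± 13.5 to 1073 ± 8.72 TPM (SD, n = 3 each), a ratio of 1.39 and a difference of 299 TPM. UCHL1 was selected on this difference in these same libraries, so its size beside the spread is no test. The log2 fold change of UCHL1 on the log2(TPM + 1) scale was 0.47 (SE 0.0274). By level, UCHL1 ranked between 192 and 199 among all rows of the DMSO libraries and between 139 and 143 in the CBR-470-1 libraries. In bulk RNA, more cells with UCHL1 and more UCHL1 RNA per cell cannot be told apart.

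UCHL3 and UCHL5, the closest relatives of UCHL1, overlapped between the treatments. UCHL3, which cuts both ubiquitin and the ubiquitin-like protein NEDD8 from short C-terminal extensions, had 43.4, 42.0 and 43.7 TPM under DMSO and 41.5, 43.1 and 46.0 TPM in CBR-470-1. The CBR-470-1 libraries lay on both sides of the DMSO libraries, and the means of 43.1 ± 0.895 and 43.6 ± 2.27 TPM differed by less than the spread in CBR-470-1. UCHL5, also called UCH37, works at the proteasome when bound to ADRM1 (RPN13) and also joins the INO80 chromatin remodeller. UCHL5 had 126, 124 and 117 TPM under DMSO and 121, 136 and 124 TPM in CBR-470-1. CBR-470-1 replicate 2 was the highest library, and the groups overlapped, with means of 122 ± 4.42 and 127 ± 7.76 TPM. The log2 fold changes were 0.01 (SE 0.0556) for UCHL3 and 0.06 (SE 0.0557) for UCHL5. With a correction that removes each library's trend with GC content and transcript length, both values were negative, -0.04 for UCHL3 and -0.05 for UCHL5.

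BAP1 is the nuclear member of the family, a tumour suppressor that removes ubiquitin from histone H2A in complex with ASXL proteins. BAP1 had 95.8, 96.6 and 103 TPM under DMSO and 87.9, 106 and 95.0 TPM in CBR-470-1. The CBR-470-1 libraries held both the lowest and the highest value, so the groups overlapped fully. The means were 98.6 ± 4.19 and 96.4 ± 9.26 TPM, and the log2 fold change was -0.04 (SE 0.0735).

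USP14 sits on the proteasome subunit PSMD2 (RPN1) and trims ubiquitin chains from docked substrates. USP14 had 102, 99.7 and 89.4 TPM under DMSO and 110, 128 and 109 TPM in CBR-470-1. The groups did not overlap, and CBR-470-1 replicate 2 stood above the others, as it did for UCHL5 and BAP1. The means were 97.0 ± 6.66 and 115 ± 11.0 TPM, a ratio of 1.19, and the log2 fold change was 0.25 (SE 0.0795). With the GC and length correction the log2 fold change of USP14 was 0.14 (SE 0.0562). The replicates of USP14 varied more than those of UCHL1: its coefficient of variation was 6.87% in DMSO and 9.49% in CBR-470-1, against 1.75% and 0.812% for UCHL1. UCHL1 was selected on its difference in these same libraries, so this comparison of spreads is a description only.

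UBB and UBA1 stand at the supply end, UBB as a gene of several ubiquitin units in a row and UBA1 as the main E1 enzyme. UBB had 1583, 1568 and 1785 TPM under DMSO and 1672, 1606 and 1650 TPM in CBR-470-1. The means of 1645 ± 121 and 1642 ± 33.6 TPM differed by far less than the DMSO spread. DMSO replicate 3 lay above all 3 CBR-470-1 libraries and the other DMSO libraries below them, and without that library the log2 fold change of UBB was 0.06 (SE 0.0251) instead of 0.00. UBA1 had 115, 118 and 128 TPM under DMSO and 116, 112 and 114 TPM in CBR-470-1. The groups overlapped at the lowest DMSO library, with means of 120 ± 6.65 and 114 ± 1.96 TPM and a log2 fold change of -0.07 (SE 0.0502), or -0.03 without DMSO replicate 3.

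**Figure D1:**
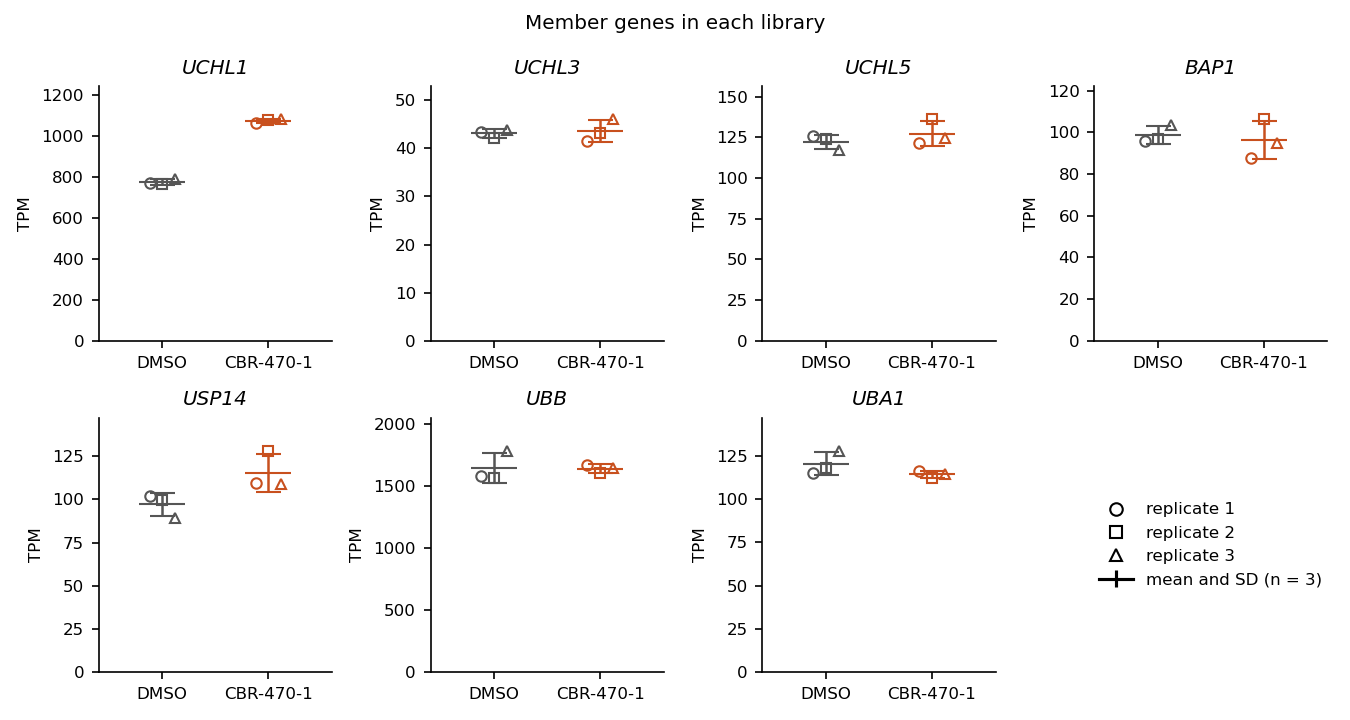
Level of each of the 7 genes in TPM (linear axis from 0) in the 3 DMSO and 3 CBR-470-1 libraries; symbols are replicates, bars the mean and SD (n = 3). The groups stand far apart for UCHL1, at 774 and 1073 TPM, do not overlap for USP14, and overlap for the other 5 genes.

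Of the 7 genes, 1 was called, UCHL1, and it was the reason for the choice of the set. The call rule, an adjusted p under 0.05 in limma with Benjamini-Hochberg adjustment over all tested genes, was met by 265 of 13470 genes or 1.97%, of which 152 (1.13% of those tested) were higher and 113 (0.839%) lower in CBR-470-1. For 2 of the 7 genes, UCHL1 and USP14, all libraries of a treatment lay on the same side of the other treatment, as they did for 30.2% of all tested genes. Nothing is read from these counts. The log2 fold changes of the 7 genes ran from -0.07 to 0.47 with a median of 0.01, against a median of 0.03 over all tested genes.

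The levels of the 7 genes in DMSO alone spread widely. UBB was highest with 1645 TPM, followed by UCHL1 with 774 TPM. After these came UCHL5 with 122 TPM and UBA1 with 120 TPM, whose ranges overlapped. BAP1 at 98.6 TPM and USP14 at 97.0 TPM came next and also overlapped each other, and UCHL3 was lowest at 43.1 TPM. UBB, UCHL1 and UCHL3 were each clear of their neighbours in all 3 DMSO libraries, and UBA1 was clear of BAP1. UCHL1 was thus present at 18.0 ± 0.219 times the level of UCHL3 in DMSO and 24.7 ± 1.08 times in CBR-470-1 (ratio of TPM within each library, SD, n = 3).

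UCHL1 made up most of the transcript level of its family. Its share of the summed TPM of UCHL1, UCHL3, UCHL5 and BAP1 was 74.4%, 74.4% and 74.9% in the DMSO libraries and 80.9%, 79.0% and 80.3% in the CBR-470-1 libraries. The share was higher in each CBR-470-1 library than in any DMSO library, which restates the difference on which UCHL1 was selected. The other members together held 264 ± 1.34 TPM under DMSO and 267 ± 17.4 TPM in CBR-470-1, so the family sum, which went from 1038 ± 14.3 to 1340 ± 23.6 TPM, moved with UCHL1. Across 84 listed cysteine deubiquitinase genes, which add the USP, OTU, Josephin, MINDY and ZUP1 groups and include some members without known deubiquitinase activity, UCHL1 ranked 1 by DMSO level. UCHL1 held 22.5% ± 0.708 of their summed TPM under DMSO and 27.4% ± 0.367 in CBR-470-1. The next in DMSO were USP22, a histone deubiquitinase of the SAGA complex, at 237 TPM and USP7, which acts on MDM2 and p53, at 193 TPM. UCHL5 ranked 5, BAP1 9, USP14 10 and UCHL3 20. Without UCHL1 the other 83 genes summed to 2664 ± 71.5 TPM under DMSO and 2849 ± 54.4 TPM in CBR-470-1, a ratio of 1.07.

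**Figure D2:**
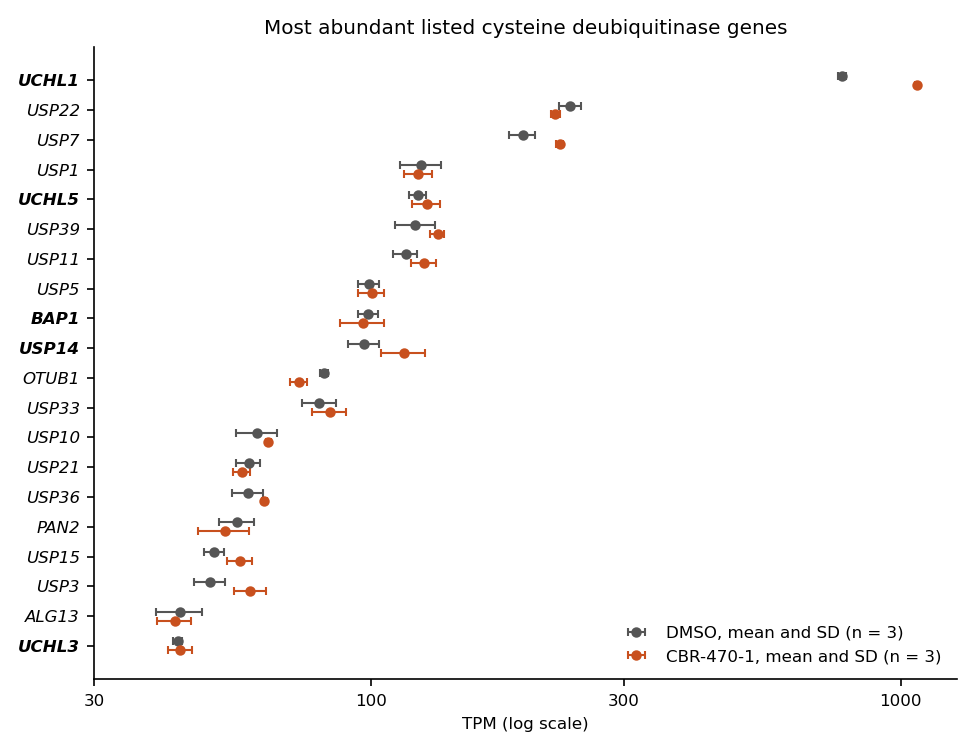
Mean level with SD (n = 3) in TPM on a log axis of the 20 listed cysteine deubiquitinase genes with the highest DMSO mean, in DMSO (grey) and CBR-470-1 (orange); genes of the described set are in bold. UCHL1 stands apart at 774 and 1073 TPM, with USP22 next at 237 TPM in DMSO.

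Ratios between genes of the same library do not depend on the scaling of that library. UCHL1 over UBB was 0.486, 0.487 and 0.442 in DMSO and 0.636, 0.670 and 0.655 in CBR-470-1. Each CBR-470-1 library lay above each DMSO library, with means of 0.471 ± 0.0256 and 0.654 ± 0.0167. UCHL1 was selected on its difference and UBB hardly differed, so this ratio restates that difference. USP14 over its dock PSMD2 was 0.256, 0.265 and 0.221 in DMSO and 0.245, 0.304 and 0.252 in CBR-470-1, with overlapping groups. UCHL5 over its partner ADRM1 was 2.05 ± 0.236 and 1.93 ± 0.190, also overlapping. USP14 over UCHL5, the 2 cysteine deubiquitinases of the proteasome, was 0.793 ± 0.0265 in DMSO and 0.905 ± 0.0341 in CBR-470-1, and here the groups did not overlap. UCHL5 itself overlapped between the treatments and USP14 did not, so this ratio largely restates the USP14 difference.

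**Figure D3:**
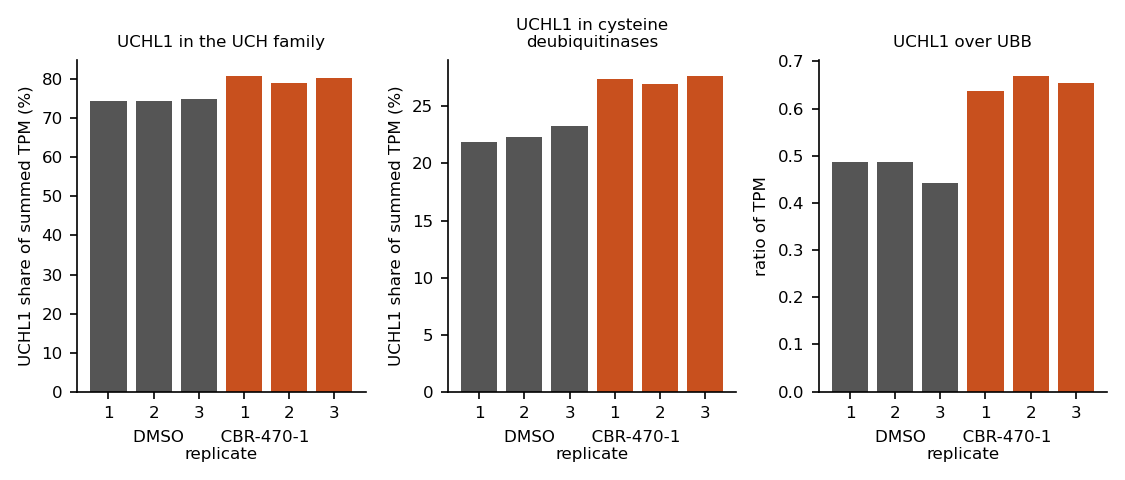
From left to right, for each of the 6 libraries: the share (%) of UCHL1 in the summed TPM of the UCH family and of the 84 listed cysteine deubiquitinases, and the TPM ratio of UCHL1 over UBB; bars start at 0, DMSO grey and CBR-470-1 orange. All of these measures are higher in each of the 3 CBR-470-1 libraries than in any DMSO library, with mean ratios of 0.471 and 0.654 for UCHL1 over UBB. UCHL1 is the numerator of each and was selected on its difference, so they are no separate evidence of it.

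Ubiquitin is also encoded by RPS27A, whose product is a fusion of ubiquitin with a ribosomal protein. RPS27A had means of 1564 ± 78.4 TPM under DMSO and 1565 ± 21.9 TPM in CBR-470-1, and did not pass (adjusted p = 0.982 in limma). Like UBB, it differed between the treatments by far less than its spread in DMSO. TPM counts transcripts and not the ubiquitin units that each encodes.

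UBB has pseudogene copies whose rows can share reads with it, so their values are uncertain. UBBP2, a processed pseudogene of 231 bases on chromosome 1, had 14.8, 13.1 and 13.6 TPM under DMSO and 7.04, 11.7 and 6.58 TPM in CBR-470-1. All CBR-470-1 libraries were below all DMSO libraries, but UBBP2 did not pass (log2 fold change -0.69, SE 0.186, limma adjusted p = 0.0915). UBBP4 had means of 7.16 ± 0.736 and 6.47 ± 0.183 TPM. Both rows are small beside the 1645 TPM of UBB in DMSO. UBBP2 was named after its values were seen, as were the genes marked so below.

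All 6 listed proteasome docking and lid subunit genes had positive log2 fold changes, beside 7667 positive and 5803 negative over all tested genes. PSMD2 and ADRM1, the docks of USP14 and UCHL5, were positive too but were not among those called. Of 6 docking and lid subunit genes, all tested, 2 rose and 0 fell, which is 33.3% against 1.97% of all tested genes, with a median log2 fold change of 0.19 against 0.03 over all tested genes. In 5 of the 6 the libraries of the treatments did not overlap, against 30.2% of all tested genes. PSMD1 (RPN2), the scaffold that holds ADRM1, had 135, 137 and 124 TPM under DMSO and 158, 164 and 166 TPM in CBR-470-1 (log2 fold change 0.30, SE 0.0496, limma adjusted p = 0.0378). PSMD4 (RPN10), a receptor for ubiquitin chains, had 382, 395 and 409 TPM under DMSO and 453, 481 and 454 TPM in CBR-470-1 (0.23, SE 0.0410, limma adjusted p = 0.0447). Both were clear of the DMSO libraries in all 3 treated libraries. Leaving out any single library, which leaves 5, ended both calls, and median centring and quantile normalization ended that of PSMD4 (limma adjusted p = 0.0575 and 0.0753). PSMD2, on which USP14 docks, had means of 393 ± 14.8 and 433 ± 12.9 TPM, without overlap. Its difference was 0.14 on the log2 scale and did not pass (limma adjusted p = 0.110). PSMD14 (RPN11), the metalloprotease that removes whole chains at the proteasome, had means of 76.8 ± 2.39 and 90.0 ± 3.11 TPM (0.23, limma adjusted p = 0.0629). Both were named after their values were seen.

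Among 16 partners of UCHL5 and BAP1, 0 were called in limma and 6 had an unadjusted p under 0.05, as did 3163 of all 13470 tested genes. In this list 12 log2 fold changes were positive and 4 negative, beside 7667 positive and 5803 negative over all tested genes, with a median of 0.12. The largest was that of BARD1, a partner of BRCA1, at 0.49 (limma adjusted p = 0.148). BARD1 had 12.7, 11.4 and 19.3 TPM under DMSO and 19.3, 20.0 and 21.3 TPM in CBR-470-1. DMSO replicate 3 lay next to the treated libraries, and without that library BARD1 passed (log2 fold change 0.70, limma adjusted p = 0.0362). ADRM1, named after its values were seen, went from 60.2 ± 5.14 to 66.2 ± 2.66 TPM and passed in the fit with the GC and length correction (0.23, limma adjusted p = 0.0331).

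In the lists of other deubiquitinases, the share called was near that of all tested genes or 0. Of 54 other ubiquitin-specific protease genes, 47 were tested, 1 rose and 0 fell, which is 2.13% of those tested against 1.97% of all tested genes. That gene was USP9X, a large X-linked deubiquitinase of many substrates, with 21.8, 18.0 and 21.2 TPM under DMSO and 28.3, 28.1 and 26.8 TPM in CBR-470-1. The treated libraries were all above the DMSO libraries (log2 fold change 0.43, SE 0.0807, limma adjusted p = 0.0468). The call of USP9X was lost when any single library was left out, after quantile normalization (limma adjusted p = 0.0541) and after correction for GC content and length (limma adjusted p = 0.0957). In this list 42 of 47 log2 fold changes were positive, beside 7667 of 13470 over all tested genes, with a median of 0.12. In 19 of the 47 the libraries of the treatments did not overlap, against 30.2% of all tested genes. Of 14 tested OTU protease genes 0 were called in limma, with a median of 0.08. An unadjusted limma p under 0.05 was found for 4 of them, and for 3163 of all 13470 tested genes. The largest OTU difference was that of YOD1, a partner of the segregase VCP (8.32 ± 0.816 to 11.4 ± 0.381 TPM, limma adjusted p = 0.0592). Of 8 tested Josephin, MINDY and ZUP1 genes 0 were called (2 with an unadjusted p under 0.05), with ATXN3, the ataxin that is mutated in Machado-Joseph disease, showing the largest value at 0.29 (limma adjusted p = 0.251). Of 12 JAMM metalloprotease genes 0 were called (4 with an unadjusted p under 0.05), with MYSM1, a histone H2A deubiquitinase, at 0.25 (limma adjusted p = 0.159).

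**Figure D4:**
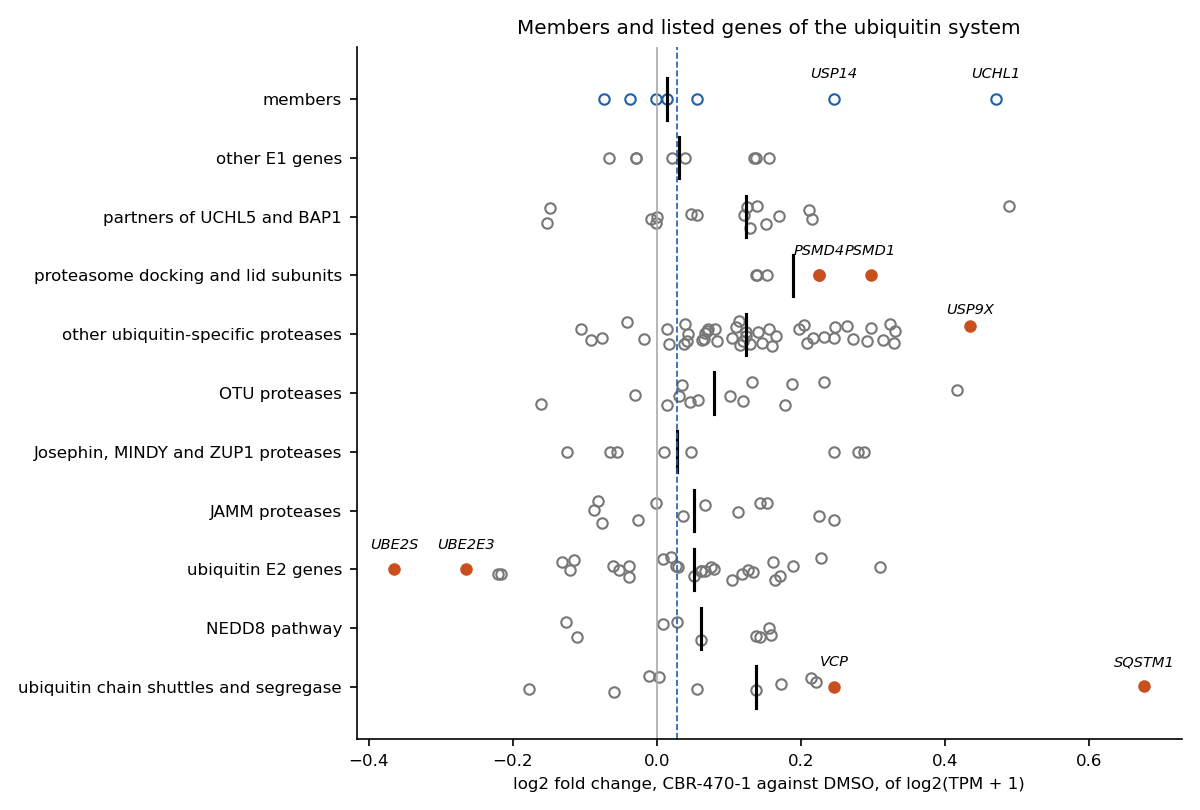
Log2 fold change of CBR-470-1 against DMSO on the log2(TPM + 1) scale for the 7 described genes (blue, drawn without a test) and the tested genes of each list (grey, or filled orange where called); black ticks are medians, the grey line is 0 and the dashed line the median of all tested genes. UCHL1 lies at 0.47, and the called genes of the lists run from UBE2S at -0.36 to SQSTM1 at 0.68.

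Upstream of the deubiquitinases stand the enzymes that activate and carry ubiquitin. Of 8 tested E1 genes other than UBA1, of ubiquitin and its relatives, 0 were called in limma, beside 1.97% of all tested genes. An unadjusted limma p under 0.05 was found for 1 of them, and for 3163 of all 13470 tested genes. The median log2 fold change of these E1 genes was 0.03. UBA3, the catalytic subunit of the NEDD8 E1, had the largest at 0.16 (53.7 ± 0.701 to 60.0 ± 1.98 TPM, limma adjusted p = 0.114). Of 31 E2 genes, 0 rose and 2 fell, which is 6.45% against 1.97% of all tested genes, with a median of 0.05. UBE2S, which extends chains for the anaphase-promoting complex, had 626, 595 and 710 TPM under DMSO and 525, 479 and 492 TPM in CBR-470-1 (log2 fold change -0.36, SE 0.0681, limma adjusted p = 0.0477). UBE2E3 had 239, 237 and 227 TPM under DMSO and 201, 194 and 190 TPM in CBR-470-1 (-0.26, SE 0.0401, limma adjusted p = 0.0297). For both genes all treated libraries were below all DMSO libraries. UBE2S lost its call when any single library was left out and after quantile normalization (limma adjusted p = 0.0684). Of the fits without a single library, UBE2E3 kept its call in that without DMSO replicate 3. Of 9 NEDD8 pathway genes, the side of UCHL3 outside ubiquitin, 0 were called in limma (2 with an unadjusted p under 0.05), with a median of 0.06. The largest difference there was that of DCUN1D1, which helps to attach NEDD8 to cullins, at 0.16 (limma adjusted p = 0.391).

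Downstream, 2 of 11 genes that carry or extract ubiquitinated proteins rose and 0 fell, which is 18.2% against 1.97% of all tested genes, with a median log2 fold change of 0.14. VCP, the segregase that pulls ubiquitinated proteins out of complexes, had 205, 199 and 199 TPM under DMSO and 234, 241 and 241 TPM in CBR-470-1 (0.25, SE 0.0355, limma adjusted p = 0.0267). The groups were well apart, although leaving out any single library ended the call. SQSTM1, the ubiquitin-binding autophagy receptor and an NRF2 target, was raised by 0.68 on the log2 scale (limma adjusted p = 0.00701). Its call held whichever single library was left out, but not with replicate number as a further factor (limma adjusted p = 0.0714). Over the 159 tested genes of all these lists, the 7 described genes left out, 5 rose and 2 fell. This is 4.40% against 1.97% of all tested genes, and the median log2 fold change was 0.08. The lists were chosen with earlier results of these data known, so their shares are a description and no test of enrichment.

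UCHL1 is often used as a marker of neurons, so its difference is given beside that of other neuronal genes. Of 12 pan-neuronal markers, 1 rose and 2 fell, which is 25.0% against 1.97% of all tested genes, with a median log2 fold change of -0.02. STMN2, a microtubule regulator of growing axons, had the positive call at 0.38, while the neuronal tubulin gene TUBB3 and the growth cone gene GAP43 fell by 0.38 and by 0.36 on the log2 scale (limma adjusted p = 0.0233, 0.0424 and 0.0364). ENO2, the neuronal enolase, went from 85.6 ± 5.08 to 81.7 ± 3.27 TPM without passing. NEFM, a neurofilament gene, went from 72.5 ± 3.08 to 89.2 ± 4.65 TPM without overlap. It did not pass (log2 fold change 0.30, limma adjusted p = 0.0513), but did with the GC and length correction (limma adjusted p = 0.0482). ENO2 and NEFM were named after their values were seen. Over the list, 5 log2 fold changes were positive and 7 negative. Of 12 adrenergic markers 0 rose and 2 fell (16.7%), DBH by 0.53 and CHGA by 0.23 on the log2 scale (limma adjusted p = 0.0247 and 0.0468). The adrenergic list had 2 positive and 10 negative log2 fold changes with a median of -0.07, beside 7667 positive and 5803 negative over all tested genes. All the STMN2, TUBB3, GAP43, DBH and CHGA calls were lost in at least 4 of the 6 fits without a single library, and that of CHGA also after the GC and length correction, after quantile normalization, with no filter and with no variance trend (limma adjusted p = 0.0543, 0.0523, 0.0990 and 0.110). With no filter the other 4 calls were lost too, and with no variance trend those of STMN2, TUBB3 and GAP43. The part of cell state in the UCHL1 difference was not tested.

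The genes whose pattern over the 6 libraries was most like that of UCHL1 were found by the root mean square distance between log2(TPM + 1) values, each gene centred on its DMSO mean, among 10469 genes of at least 5 TPM. The nearest was FTH1, the ferritin heavy chain, at a distance of 0.0227, followed by NEFH, a neurofilament subunit, at 0.0298. DNAJC25, a member of the DNAJ co-chaperone family, followed at 0.0360, ABCB6, a porphyrin-transporting ABC protein, at 0.0400 and OLFM1, an olfactomedin, at 0.0429. FTH1 had 882, 883 and 915 TPM under DMSO and 1249, 1200 and 1244 TPM in CBR-470-1. NEFH had 77.5, 73.0 and 77.0 TPM under DMSO and 102, 108 and 108 TPM in CBR-470-1. All 5 genes had log2 fold changes between 0.45 and 0.50, close to the 0.47 of UCHL1, as the measure requires.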

How the data were processed

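The submitters' processing notes list bcl2fastq, Salmon 0.7.2 and GRCh38; the annotation and options are not given there. The authors deposited TPM per gene symbol and library, which are relative levels without counts, so no counting error can be given. Titles put 3 libraries in each treatment. Values were analysed as log2(TPM + 1) for genes averaging 1 TPM or more, in limma 3.58.1 (R 4.3.3) with group as the only factor, a variance trend and Benjamini-Hochberg adjustment over 13470 genes. Calls needed an adjusted p under 0.05, two-sided. The fit was tested on simulated data. Exact tests of 3 against 3 cannot go below p = 0.1.

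The members and lists were chosen with earlier results of these data known. The text names the 7 genes, up to 4 called genes per list or else the largest difference at 5 TPM or more, RPS27A and the 5 nearest patterns; results for some genes that the rule takes are not reported here. P-values set each difference against the spread between these cultures, moderated over all tested genes with the variance trend. Alternatives were other pseudocounts, filters, scalings, variance models, a replicate block and single libraries left out. A GC and length correction (splines with 5 degrees of freedom, GENCODE 29) was chosen after seeing the data.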

Additional observations from a re-analysis of the deposited data

How the results depend on the processing

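UCHL1 stayed higher in all 17 alternatives, with a log2 fold change of 0.43 with median centring, 0.50 after quantile normalization and 0.54 after the GC and length correction, and 0.46 to 0.49 without single libraries. With that correction UCHL3 was at -0.0410 and UCHL5 at -0.0452. Leaving out single libraries gave 0.17 to 0.29 for USP14. The UCHL1 share in DMSO was 74.6% in its family, 82.4% without BAP1 and 22.5% of all listed cysteine deubiquitinases. The order of levels kept 5 to 7 of 7 places without single DMSO libraries.

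The count of called genes was 265, but 82 with no filter, 428 at 5 TPM or more, 83 with no variance trend, 22 at an adjusted p under 0.01 and 18 to 82 without single libraries. Higher against lower calls were 152 against 113, but 124 against 237 with median centring and 152 against 216 with the GC and length correction; the cause was not tested. The titles number the replicates without saying whether equal numbers were handled together. Correlations of same-numbered deviations were -0.14, -0.01 and -0.03, and differently numbered ones reached 0.14 and -0.09, so they do not decide it. With the replicate block 17 genes were called, and 0 in the docking, ubiquitin-specific protease, E2 and shuttle lists, where SQSTM1 was at a limma adjusted p of 0.0714. In the docking list of 2 calls, no filter, no variance trend and an adjusted p under 0.01 each left 0, median centring and quantile normalization each left 1, and single libraries left out gave 0 to 0. For ubiquitin-specific proteases, 5 TPM or more gave 2, and no filter, quantile normalization, no variance trend, the GC and length correction and an adjusted p under 0.01 each gave 0, as did every single library left out. For E2 genes, no filter, no variance trend and an adjusted p under 0.01 gave 0, and quantile normalization and rescaling without mitochondrial and ribosomal protein genes gave 1, with 0 to 1 without single libraries. The shuttle list kept 1 with no variance trend, at an adjusted p under 0.01 and without any single library. The partner list gained 1 with the GC and length correction and 0 to 1 without single libraries, and at 5 TPM or more the OTU and JAMM lists each gained 1.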
